A study of Mus musculus with 8 samples.

Results

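The heat shock chaperones described here were Hsf1, Hspa1a, Hspa1b, Hspa8, Hsp90aa1, Hsp90ab1, Hsph1, Dnajb1, Hspb1 and Hspd1. They were taken by symbol from the per-sample gene tables and make up 10 of the 39089 genes listed there, and all 10 were among the 13921 genes with enough counts to be tested.

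Heat shock proteins keep other proteins folded. The transcription factor HSF1, held inactive by chaperones in unstressed cells, drives the stress-inducible forms when unfolded protein builds up, while closely related constitutive forms are made in nearly all cells and carry the daily load of folding. In tumors, prostate cancer among them, HSP90 and HSP70 hold many signaling proteins in an active state, the androgen receptor among them.

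The study asked how losing Arid1a, which encodes a part of the SWI/SNF chromatin remodeler, changes gene expression in mouse prostate tumor cells, and how much of that change depends on NF-κB. RNA-seq was done on 8 samples in 4 groups of 2. Myc-CaP is an established mouse prostate cancer line, derived from a MYC-transgenic tumor, and grows in FVB hosts with an intact immune system. WT samples carried the empty control vector and Arid1a KO samples a CRISPR guide to Arid1a.

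In every group the cells were placed under the skin of male FVB mice aged 6 weeks, and the labels describe the tumor cells as sorted positive for EpCAM and negative for CD45. The WT JSH-23 and Arid1a KO JSH-23 groups received JSH-23, an inhibitor of NF-κB nuclear entry, dissolved in DMSO and diluted in corn oil, by daily gavage for 2 weeks from day 16, and the WT vehicle and Arid1a KO vehicle groups received the control. The sample labels give that control as corn oil and the study elsewhere names DMSO, so if it held no DMSO, effects of JSH-23 and of DMSO cannot be told apart in any comparison of JSH-23 with vehicle. The sources used here do not say whether the knockout cells were 1 clone, nor how tumors map onto the 2 samples of a group, so p-values measure the spread between these samples, which may be technical. Counts of the pairs differed by 1.46 to 1.57 times the sampling noise (chi-square per degree of freedom), and the fitted biological coefficient of variation was 1.61%. Total counts were 16650998 and 16803946 in the WT vehicle samples, 17559823 and 20066676 in the Arid1a KO vehicle samples, 17792910 and 16401581 in the WT JSH-23 samples and 19353506 and 21972231 in the Arid1a KO JSH-23 samples.

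The targeted gene was read first. Arid1a stood at 156 and 161 CPM in the WT vehicle samples, 103 and 106 in the Arid1a KO vehicle samples, 144 and 155 in the WT JSH-23 samples and 93.8 and 95.9 in the Arid1a KO JSH-23 samples, where CPM is the standard depth-scaled count, here with sample totals scaled by TMM. Every Arid1a KO sample lay below every WT sample, but transcript from the locus was still counted in all 4. The log2 fold change of Arid1a in Arid1a KO against WT was -0.60 (SE 0.036, adjusted p = 1.39e-23) with vehicle and -0.66 (SE 0.037, adjusted p = 5.12e-25) with JSH-23 by edgeR's quasi-likelihood test, with p-values adjusted over all tested genes by the Benjamini-Hochberg method. JSH-23 changed Arid1a by -0.14 (SE 0.039, adjusted p = 0.00136) in Arid1a KO and -0.083 (SE 0.035, adjusted p = 0.0378) in WT on the log2 scale in edgeR, with an interaction of -0.055 (SE 0.052, adjusted p = 0.439), and the sample omissions that end these small calls are given with the other settings. The change in Arid1a KO was -0.25 without TMM and -0.36 on log2(TPM + 1), and the interaction passed the threshold on both (-0.16 and -0.24).

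Markers were read against the sort. Epcam, the gene of the sorted surface protein, was between 0 and 4 counts per sample, Cdh1 reached at most 0.526 TPM (the authors' measure, scaled for transcript length) and Krt18 at most 1.499 TPM. These defining epithelial markers were thus at or near 0, which goes against the stated sort for EpCAM, whereas Krt8 (44.6 to 158 TPM), Krt19 (20.1 to 185 TPM) and Cldn4 (9.12 to 15.8 TPM) were detected. The 6 epithelial markers summed to 168 and 152 TPM in the WT vehicle samples, 359.8 and 354 in the Arid1a KO vehicle samples, 76.9 and 78.1 in the WT JSH-23 samples and 253 and 262 in the Arid1a KO JSH-23 samples. This sum, mainly of Krt8 and Krt19, was highest in Arid1a KO vehicle and lowest in WT JSH-23. Not every marker followed it, and Krt18 was highest in Arid1a KO JSH-23 (1.499 and 1.32 TPM).

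In levels per length, Hsp90ab1 stood first of the members at 3952 ± 592 TPM (SD over 8 samples), and its lowest sample lay above the highest sample of each other member. Hspa8 followed at 1414 ± 363 TPM, and was above Hspb1 in 7 of the 8 samples. Hspb1 at 818 ± 76.4 TPM was above Hsp90aa1 at 721 ± 121 TPM in each of the 8 samples, although their ranges over all samples, 708 to 920.2 TPM and 579.7 to 893 TPM, overlap. Hspd1 came next at 444 ± 7.85 TPM and did not overlap with either neighbor. Hspa1b (37.7 to 66.8 TPM), Dnajb1 (34.5 to 49.8 TPM), Hsf1 (36.0 to 46.6 TPM) and Hsph1 (28.1 to 44.3 TPM) formed a lower tier in which the order of each pair changed between samples, and Hspa1a was lowest at 6.67 to 12.2 TPM. Together the members took 0.595% to 0.800% of all counts in a sample.

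Before the single genes, the counts of calls are given beside those of all tested genes. With vehicle, 4 of the 10 members were higher and 3 lower in Arid1a KO at an adjusted p under 0.05 by edgeR, when 25.0% of all tested genes were higher and 25.5% lower. None of the 10 also reached a 1.5-fold change, against 12.6% of all genes. That count was 0 by edgeR also at an unadjusted p under 0.05, and it was 1 by DESeq2, which placed Hspa8 past the line. With JSH-23, 6 members were higher and 2 lower in Arid1a KO, against 23.2% and 23.8% of all genes, and 2 of 10, Hspa1a and Hspa1b, passed 1.5-fold, against 8.71%. Of these, Hspa1a fell short of the line on log2(TPM + 1) and by glmTreat but passed it on log2(TPM + 0.1). These JSH-23 counts of members depend on scaling: higher and lower were 5 and 4 without TMM and 4 and 4 on log2(TPM + 1).

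Within Arid1a KO, JSH-23 raised 6 members and lowered 2 at an adjusted p under 0.05 in edgeR, when 33.4% of all genes were higher and 34.4% lower, and 3 of 10, Hspa8, Hsp90ab1 and Hsph1, passed 1.5-fold, against 26.0%, with Hspa8 alone left without TMM and on TPM. Members higher and lower there were 4 and 2 without TMM and 3 and 5 on log2(TPM + 1), so that on TPM more members fell than rose. Within WT, 4 members were higher and 5 lower with JSH-23, against 28.6% and 27.2%. None of the 10 passed 1.5-fold there, against 15.8% of all genes, and the count was 0 also at an unadjusted p under 0.05 and by DESeq2. In the interaction, the JSH-23 effect in Arid1a KO minus that in WT, 7 members were higher and 0 lower at an adjusted p under 0.05, against 20.5% and 17.9% of all genes, but 5 and 1 without TMM and 4 and 2 on log2(TPM + 1). By edgeR 0 of 10 members had an interaction past 1.5-fold, against 9.07%, with 0 also at an unadjusted p under 0.05 and by DESeq2. The 4 comparisons share samples in pairs, since each group enters a genotype and a treatment comparison, so their values are given side by side and are not independent.

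The median log2 fold change of the 10 members was 0.032 in Arid1a KO against WT with vehicle, where that of all tested genes was 0.0032. With JSH-23 it was 0.15, against -0.011 for all genes. For JSH-23 in Arid1a KO the members' median was 0.12 and in WT -0.089, against -0.020 and -0.0061 for all genes. The interaction had a members' median of 0.27, against -0.0041. Scaling moved these medians for genotype with JSH-23, JSH-23 in Arid1a KO and the interaction. Taken gene by gene, the log2(TPM + 1) value minus the TMM value had a median of -0.23 for JSH-23 in Arid1a KO. That difference was -0.18 for genotype with JSH-23 and -0.19 for the interaction. For values without TMM, the same difference had a median of -0.11 for JSH-23 in Arid1a KO and -0.10 for the interaction. On TPM the members' own medians were -0.043 for genotype with JSH-23, -0.11 for JSH-23 in Arid1a KO and 0.070 for the interaction. Among all genes past 1.5-fold, the share that was higher went from 42.9% to 29.6% without TMM and 15.9% on log2(TPM + 1) for genotype with JSH-23, from 35.0% to 22.5% and 12.8% for JSH-23 in Arid1a KO, and from 36.5% to 18.8% and 10.6% for the interaction.

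**Figure D1:**
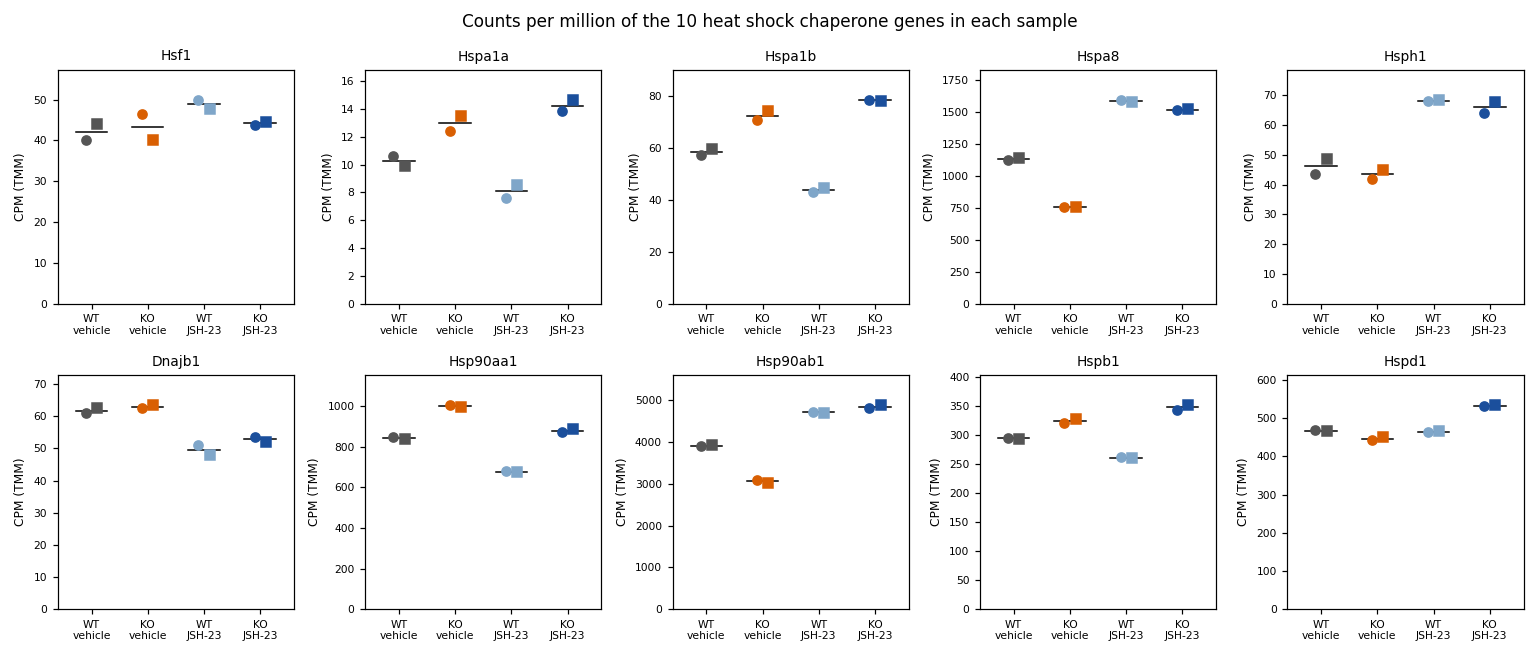
CPM (TMM-scaled) of each of the 10 genes on a linear axis from 0, with a point for each sample (circle for replicate 1, square for replicate 2) and a line at the mean of each group of 2. Hspa8 and Hsp90ab1 were lowest in the Arid1a KO vehicle samples and Hspa1a, Hspa1b, Hsp90aa1 and Hspb1 in the WT JSH-23 samples, while the Hspa1b and Hspb1 points of Arid1a KO JSH-23 lie above those of Arid1a KO vehicle on CPM and below them on TPM.

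Hsf1 (chr15:76477362-76501155, mm10) encodes the factor that switches on the inducible chaperones. Its level was 40.1 and 44.1 CPM in the WT vehicle samples, 46.4 and 40.1 in the Arid1a KO vehicle samples, 49.9 and 47.8 in the WT JSH-23 samples and 43.8 and 44.5 in the Arid1a KO JSH-23 samples. The vehicle samples of both genotypes overlapped, and the WT JSH-23 samples were above all others. With JSH-23 in WT the log2 fold change of Hsf1 was 0.21 (SE 0.065, adjusted p = 0.00352) by edgeR, a call lost on log2(TPM + 1) (0.17) and without WT vehicle replicate 1 (0.15). In Arid1a KO it was 0.036 (SE 0.062, adjusted p = 0.626) by edgeR, which turned to -0.078 on library size alone, -0.20 on log2(TPM + 1) and -0.064 without Arid1a KO vehicle replicate 2. Arid1a KO against WT gave 0.034 (SE 0.065, adjusted p = 0.693) with vehicle, which turned to -0.037 without WT vehicle replicate 1 and -0.072 without Arid1a KO vehicle replicate 1, and -0.14 (SE 0.062, adjusted p = 0.0493) with JSH-23 in edgeR, where the latter was -0.22 without TMM and -0.33 on log2(TPM + 1). This call was lost by DESeq2 (-0.14), without a filter on low counts (-0.15), without WT JSH-23 replicate 1 (-0.11) or 2 (-0.18), without Arid1a KO JSH-23 replicate 1 (-0.13) or 2 (-0.14), and without Arid1a KO vehicle replicate 1 (-0.14). The interaction of Hsf1 was -0.18 (SE 0.090, adjusted p = 0.11) by edgeR, and it passed the threshold without TMM (-0.28), on log2(TPM + 1) (-0.37) and without Arid1a KO vehicle replicate 2 (-0.28). The transcript level of Hsf1 does not measure HSF1 activity, which is set by trimer formation and phosphorylation of the protein.

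Hspa1b (chr17:34956429-34959238) and Hspa1a (chr17:34969359-34972156) are neighboring genes for the inducible cytosolic HSP70, the chaperone whose transcript climbs most steeply upon heat in many cells. Hspa1b stood at 57.2 and 59.6 CPM in the WT vehicle samples, 70.8 and 74.0 in the Arid1a KO vehicle samples, 43.1 and 44.5 in the WT JSH-23 samples and 78.3 and 78.2 in the Arid1a KO JSH-23 samples. The WT JSH-23 samples were lowest, the WT vehicle samples next, and all Arid1a KO samples were above all WT samples. Hspa1b was 1.24-fold higher in Arid1a KO with vehicle (log2 0.31, SE 0.050, adjusted p = 1.79e-07) and 1.79-fold higher with JSH-23 (log2 0.84, SE 0.052, adjusted p = 3.9e-23) by edgeR. JSH-23 in WT changed it by -0.42 (SE 0.056, adjusted p = 1.62e-09) on the log2 scale in edgeR. In Arid1a KO the edgeR value for JSH-23 was 0.11 (SE 0.046, adjusted p = 0.0287), but without TMM it was -0.0026 and on log2(TPM + 1) -0.12, so its direction depends on the scaling. That call was also lost by DESeq2 (0.12), with only genes of at least 10 counts in every sample (0.087) and without Arid1a KO vehicle replicate 1 (0.085). The interaction of Hspa1b was 0.53 (SE 0.072, adjusted p = 6.64e-09) by edgeR and 0.32 on log2(TPM + 1).

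Hspa1a was counted at a lower level, with 10.6 and 9.88 CPM in the WT vehicle samples, 12.4 and 13.5 in the Arid1a KO vehicle samples, 7.59 and 8.57 in the WT JSH-23 samples and 13.8 and 14.6 in the Arid1a KO JSH-23 samples. Its groups stood in the same order as those of Hspa1b, and the genotypes did not overlap under either treatment. The log2 fold change in Arid1a KO against WT was 0.34 (SE 0.11, adjusted p = 0.00983) with vehicle and 0.82 (SE 0.12, adjusted p = 1.5e-08) with JSH-23 by edgeR, and the latter was 0.56 on log2(TPM + 1), under the 1.5-fold line, and 0.62 on log2(TPM + 0.1), past it, while by glmTreat the line was not passed. JSH-23 gave -0.35 (SE 0.13, adjusted p = 0.0183) in WT and 0.13 (SE 0.11, adjusted p = 0.263) in Arid1a KO, which was 0.019 without TMM and turned to -0.095 on log2(TPM + 1), with an interaction of 0.48 (SE 0.17, adjusted p = 0.0169), all by edgeR unless named. By DESeq2 the adjusted p of Hspa1a was 0.0955 for genotype with vehicle, 0.0991 for JSH-23 in WT and 0.113 for the interaction. The vehicle call was lost without WT vehicle replicate 2 (0.29) or Arid1a KO vehicle replicate 2 (0.28), and the call in WT without WT vehicle replicate 1 (-0.29) or WT JSH-23 replicate 1 (-0.25). The interaction call was lost without TMM (0.38), on log2(TPM + 1) (0.25), and without WT vehicle replicate 1 (0.43), WT JSH-23 replicate 1 (0.40) or Arid1a KO vehicle replicate 1 (0.43).

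The Hspa1a and Hspa1b transcripts of GENCODE were 99.3% identical over 2209 aligned bases and shared a run of 638 bases without a difference. Reads from that run fit both genes, so the split of counts between Hspa1a and Hspa1b is uncertain. How such reads were counted was not tested. If they were left out, the levels of both genes and their sum would be too low. The ratio of Hspa1b counts to Hspa1a counts was 5.38 and 6.03 in the WT vehicle samples, 5.69 and 5.48 in the Arid1a KO vehicle samples, 5.68 and 5.19 in the WT JSH-23 samples and 5.66 and 5.34 in the Arid1a KO JSH-23 samples. It overlapped between all 4 groups. With the pair summed before the fit, the log2 fold change in Arid1a KO against WT was 0.32 (SE 0.046, adjusted p = 1.59e-08) with vehicle and 0.84 (SE 0.047, adjusted p = 6.29e-25) with JSH-23 by edgeR, and the interaction was 0.52 (SE 0.066, adjusted p = 9.23e-10).

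Hspa8 (chr9:40801276-40805202) encodes HSC70, the constitutive cytosolic HSP70, which also strips clathrin from vesicles. Its level was 1124 and 1139 CPM in the WT vehicle samples, 756 and 755 in the Arid1a KO vehicle samples, 1589.9 and 1572 in the WT JSH-23 samples and 1511 and 1521 in the Arid1a KO JSH-23 samples. Arid1a KO vehicle was far below the other 3 groups, and the WT JSH-23 samples were the highest. In Arid1a KO with vehicle, Hspa8 was 1.497-fold lower than in WT (log2 -0.58, SE 0.015, adjusted p = 8.81e-44, edgeR), just short of the 1.5-fold line. It passed that line by DESeq2 (-0.59), without a filter on low counts (-0.59), and without WT vehicle replicate 1 (-0.60), WT JSH-23 replicate 1 or 2 (-0.59 and -0.59) or Arid1a KO JSH-23 replicate 1 or 2 (-0.59 and -0.59). With JSH-23 the genotype difference was -0.061 (SE 0.014, adjusted p = 0.000295) by edgeR, and it was -0.14 without TMM and -0.25 on log2(TPM + 1). JSH-23 raised Hspa8 2.01-fold in Arid1a KO (log2 1.00, SE 0.015, adjusted p = 2.21e-59) and 1.40-fold in WT (log2 0.48, SE 0.015, adjusted p = 3.99e-40), and edgeR gave an interaction of 0.52 (SE 0.021, adjusted p = 1.8e-32). On log2(TPM + 1) the rise in Arid1a KO was 0.77 and the interaction 0.32. The Hspa8 extent holds 3 small nucleolar RNA genes on its strand, Snord14c, Snord14d and Snord14e, and how reads over them were assigned was not tested.

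Hsph1 (chr5:149616843-149636498) encodes HSP110, which exchanges nucleotide on HSP70 and helps it to break up aggregates. It stood at 43.7 and 48.6 CPM in the WT vehicle samples, 41.98 and 45.0 in the Arid1a KO vehicle samples, 68.0 and 68.3 in the WT JSH-23 samples and 64.0 and 67.8 in the Arid1a KO JSH-23 samples. All 4 JSH-23 samples lay above all 4 vehicle samples, and the genotypes overlapped with vehicle. JSH-23 raised Hsph1 by 0.56 (SE 0.057, adjusted p = 1.09e-13) in WT and 0.60 (SE 0.055, adjusted p = 1.34e-15) in Arid1a KO on the log2 scale in edgeR, on either side of the 1.5-fold line. The effects were not shown to differ, with an edgeR interaction of 0.035 (SE 0.079, adjusted p = 0.769) and a 95% interval of -0.12 to 0.19, and its sign turned without TMM (-0.068), on log2(TPM + 1) (-0.16), without WT vehicle replicate 2 (-0.038) and without Arid1a KO vehicle replicate 1 (-0.0075). Arid1a KO against WT gave -0.082 (SE 0.060, adjusted p = 0.259) with vehicle and -0.047 (SE 0.052, adjusted p = 0.484) with JSH-23 by edgeR, and the latter passed the threshold without TMM (-0.12) and on log2(TPM + 1) (-0.23) and turned to 0.00069 without Arid1a KO JSH-23 replicate 1. The 1.5-fold call of Hsph1 in Arid1a KO was lost without TMM (0.48), on log2(TPM + 1) (0.35), by glmTreat, with only genes of at least 10 counts in every sample (0.57), and without Arid1a KO vehicle replicate 1 (0.55) or Arid1a KO JSH-23 replicate 2 (0.58). In WT it was reached without WT vehicle replicate 2 (0.64).

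Dnajb1 (chr8:83608175-83612653) encodes HSP40, the stress-inducible J-protein that delivers clients to HSP70 and feeds back on HSF1. Its level was 61.0 and 62.5 CPM in the WT vehicle samples, 62.6 and 63.4 in the Arid1a KO vehicle samples, 51.0 and 47.8 in the WT JSH-23 samples and 53.7 and 52.0 in the Arid1a KO JSH-23 samples. The JSH-23 samples were below all vehicle samples in both genotypes, opposite to Hsph1. The log2 fold change of Dnajb1 with JSH-23 was -0.32 (SE 0.055, adjusted p = 8.08e-07) in WT and -0.26 (SE 0.051, adjusted p = 1.32e-05) in Arid1a KO by edgeR, and the latter was -0.48 on log2(TPM + 1). The genotypes were not shown to differ, with 0.029 (SE 0.051, adjusted p = 0.668) for vehicle and 0.094 (SE 0.055, adjusted p = 0.159) for JSH-23 in edgeR, nor were the treatment effects, with an interaction of 0.065 (SE 0.075, adjusted p = 0.535) and a 95% interval of -0.085 to 0.22. On log2(TPM + 1) the genotype difference with JSH-23 turned to -0.091 and the interaction to -0.13, and without TMM they were 0.017 and -0.039.

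Hsp90aa1 (chr12:110691036-110696395) encodes HSP90 alpha, the inducible cytosolic HSP90. It stood at 847 and 840.3 CPM in the WT vehicle samples, 1004 and 996 in the Arid1a KO vehicle samples, 682 and 674 in the WT JSH-23 samples and 873 and 888 in the Arid1a KO JSH-23 samples. Each group was apart from the others, with Arid1a KO vehicle highest and WT JSH-23 lowest. Hsp90aa1 was higher in Arid1a KO by 0.25 (SE 0.017, adjusted p = 3.43e-21) with vehicle and 0.38 (SE 0.017, adjusted p = 2.64e-30) with JSH-23 on the log2 scale in edgeR. JSH-23 lowered it, with log2 fold changes of -0.32 (SE 0.017, adjusted p = 6.68e-26) in WT and -0.18 (SE 0.016, adjusted p = 3.28e-16) in Arid1a KO by edgeR. The genotype difference with JSH-23 was 0.19 on log2(TPM + 1), and the change in Arid1a KO was -0.30 without TMM and -0.42 on log2(TPM + 1). Its interaction of 0.13 (SE 0.024, adjusted p = 4.63e-06) in edgeR was 0.028 without TMM, with the call lost, and turned to -0.066 on log2(TPM + 1), so whether JSH-23 lowered it more in WT depends on the scaling.

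Hsp90ab1 (chr17:45567778-45573261) encodes HSP90 beta, the constitutive partner and the most abundant member per length. Its level was 3914 and 3922 CPM in the WT vehicle samples, 3097 and 3019 in the Arid1a KO vehicle samples, 4724 and 4710.5 in the WT JSH-23 samples and 4819 and 4880.1 in the Arid1a KO JSH-23 samples. Arid1a KO vehicle was lowest by a wide margin, WT vehicle next, and the 4 JSH-23 samples were highest. In Arid1a KO with vehicle the log2 fold change of Hsp90ab1 against WT was -0.36 (SE 0.011, adjusted p = 4.1e-39) by edgeR. With JSH-23 it was 0.040 (SE 0.011, adjusted p = 0.00203) in edgeR, which turned to -0.037 without TMM and -0.15 on log2(TPM + 1). JSH-23 raised Hsp90ab1 1.59-fold in Arid1a KO (log2 0.67, SE 0.011, adjusted p = 5.85e-56) and 1.20-fold in WT (log2 0.27, SE 0.011, adjusted p = 4.56e-32) by edgeR, with an interaction of 0.40 (SE 0.016, adjusted p = 1.02e-32) that was 0.20 on log2(TPM + 1). The 1.5-fold call in Arid1a KO was not reached without TMM (0.55) or on log2(TPM + 1) (0.43).

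Within a sample, the ratio of 2 genes does not depend on how libraries are scaled. The ratio of Hsp90ab1 TPM to Hsp90aa1 TPM was 5.25 and 5.31 in the WT vehicle samples, 3.51 and 3.45 in the Arid1a KO vehicle samples, 7.88 and 7.94 in the WT JSH-23 samples and 6.28 and 6.25 in the Arid1a KO JSH-23 samples. It was lower in Arid1a KO than in WT under both treatments and higher with JSH-23 in both genotypes, with no overlap between any pair of groups. The ratio of Hspa8 TPM to the summed TPM of Hspa1a and Hspa1b was 22.1 and 21.9 in the WT vehicle samples, 12.1 and 11.5 in the Arid1a KO vehicle samples, 41.9 and 39.5 in the WT JSH-23 samples and 21.9 and 21.9 in the Arid1a KO JSH-23 samples. Here too Arid1a KO vehicle was lowest and WT JSH-23 highest, while WT vehicle and Arid1a KO JSH-23 lay together. The ratios are given as measured and were not tested, and the HSP70 ratio carries the uncertainty in the counts of Hspa1a and Hspa1b.

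The summed TPM of Hsp90aa1 and Hsp90ab1 was 4684 and 4697 in the WT vehicle samples, 4022 and 3938 in the Arid1a KO vehicle samples, 5215 and 5182 in the WT JSH-23 samples and 4808 and 4833 in the Arid1a KO JSH-23 samples. Like Hsp90ab1 alone, the sum was lowest in Arid1a KO vehicle and highest in WT JSH-23 on TPM. The summed TPM of Hspa8, Hspa1a and Hspa1b was 1407 and 1429.5 in the WT vehicle samples, 985 and 989 in the Arid1a KO vehicle samples, 1900.2 and 1877 in the WT JSH-23 samples and 1619.8 and 1618 in the Arid1a KO JSH-23 samples. It stood in the order of Hspa8, its main part.

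**Figure D2:**
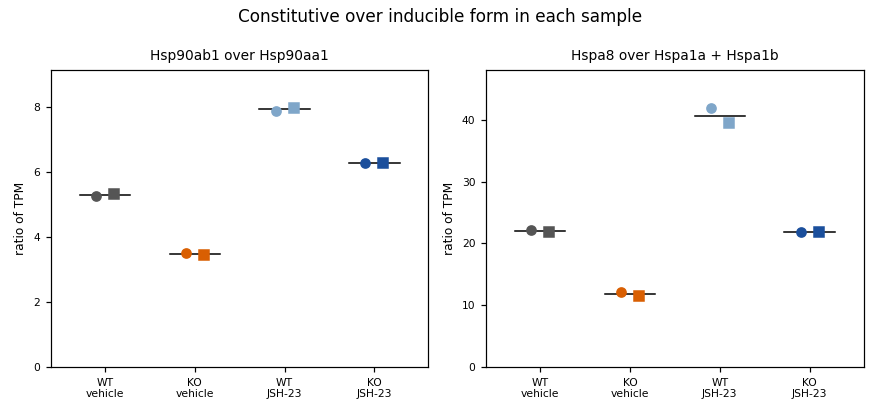
Ratio of the TPM of the constitutive to the inducible form in each sample on a linear axis from 0, for HSP90 (Hsp90ab1 over Hsp90aa1) and HSP70 (Hspa8 over the sum of Hspa1a and Hspa1b), with a line at the mean of each group of 2. Both ratios were lowest in the Arid1a KO vehicle samples and highest in the WT JSH-23 samples.

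Hspb1 (chr5:135887919-135889563) encodes HSP27, a small heat shock protein that holds unfolded clients without using ATP and is known in prostate cancer for its ties to the androgen receptor. It stood at 296 and 293 CPM in the WT vehicle samples, 321 and 328 in the Arid1a KO vehicle samples, 262 and 261 in the WT JSH-23 samples and 344 and 351 in the Arid1a KO JSH-23 samples. On CPM all Arid1a KO samples lay above all WT samples, and WT JSH-23 was lowest. On TPM the genotypes overlapped, with Arid1a KO JSH-23 replicate 1 (822.4) below WT vehicle replicate 1 (825.5). The log2 fold change in Arid1a KO against WT was 0.14 (SE 0.024, adjusted p = 6.99e-07) with vehicle and 0.41 (SE 0.024, adjusted p = 2.3e-24) with JSH-23 by edgeR, and the latter was 0.22 on log2(TPM + 1). JSH-23 gave -0.17 (SE 0.025, adjusted p = 1.73e-08) in WT and 0.10 (SE 0.023, adjusted p = 0.000109) in Arid1a KO by edgeR, and the value in Arid1a KO turned to -0.014 without TMM and -0.14 on log2(TPM + 1). The interaction of Hspb1 was 0.27 (SE 0.034, adjusted p = 4.71e-10) in edgeR, 0.17 without TMM and 0.074 on log2(TPM + 1).

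Hspd1 (chr1:55077833-55088243) encodes HSP60, the chamber-forming chaperonin of the mitochondrial matrix. Its level was 468 and 466 CPM in the WT vehicle samples, 442 and 450.0 in the Arid1a KO vehicle samples, 463 and 467 in the WT JSH-23 samples and 532 and 533 in the Arid1a KO JSH-23 samples. Arid1a KO JSH-23 was above the other 3 groups and Arid1a KO vehicle below them, while WT vehicle and WT JSH-23 overlapped. In edgeR JSH-23 changed Hspd1 by 0.26 (SE 0.020, adjusted p = 9.09e-19) in Arid1a KO and -0.0068 (SE 0.021, adjusted p = 0.796) in WT, and the interaction was 0.26 (SE 0.029, adjusted p = 4.43e-12). The sign in WT turned in 3 of the 8 omissions of a sample, where the values of all 8 ran from -0.0084 to 0.0025. Without TMM the change in Arid1a KO was 0.14, the interaction 0.16 and the genotype difference with JSH-23 0.12. On log2(TPM + 1) the rise in Arid1a KO shrank to 0.018 (adjusted p = 0.341, limma) and the interaction to 0.066 (adjusted p = 0.054, limma), and the range over samples was 433 to 456 TPM. The value in WT was -0.047 (adjusted p = 0.0413, limma) on that scale. Genotype gave -0.066 (SE 0.020, adjusted p = 0.00465) with vehicle and 0.20 (SE 0.020, adjusted p = 2.19e-13) with JSH-23 by edgeR. The vehicle call was lost without TMM (-0.040) and without Arid1a KO vehicle replicate 1 (-0.056), and the JSH-23 call on log2(TPM + 1) (0.0052). Hspd1 shares a bidirectional start with Hspe1, the gene of its partner lid HSP10, and their extents overlap by 96 bases on opposite strands. The ratio of Hspd1 TPM to Hspe1 TPM was 1.11 and 1.12 in the WT vehicle samples, 1.21 and 1.21 in the Arid1a KO vehicle samples, 1.00 and 0.997 in the WT JSH-23 samples and 0.967 and 0.982 in the Arid1a KO JSH-23 samples, with the JSH-23 samples below all vehicle samples.

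**Figure D3:**
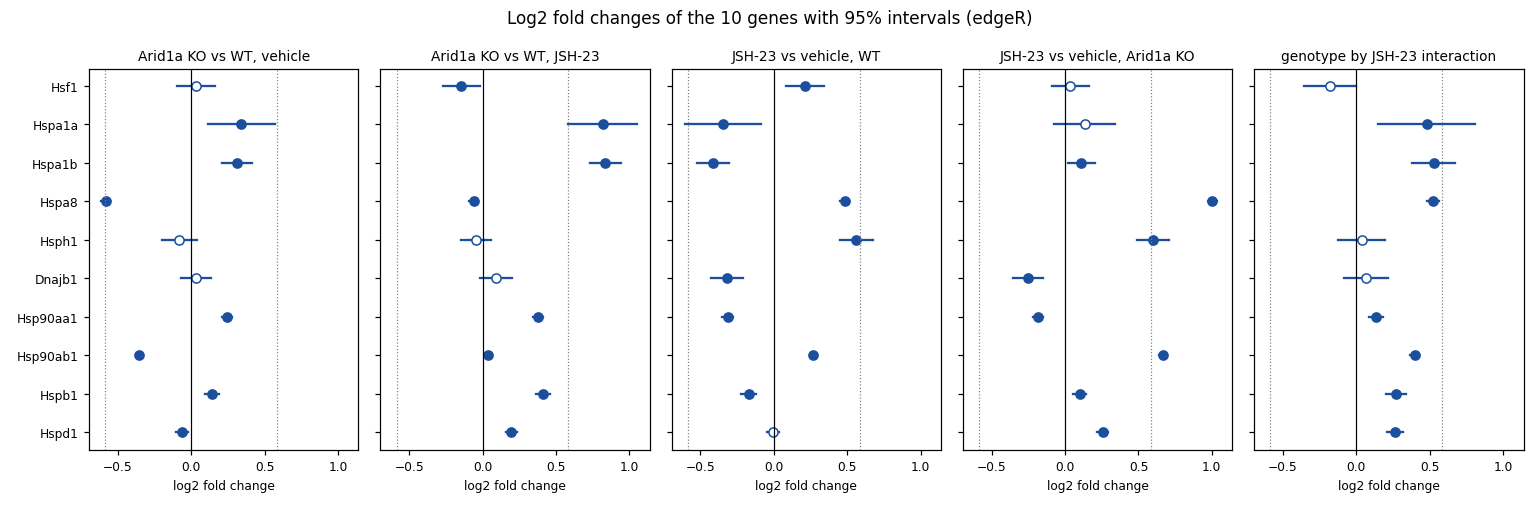
Log2 fold change from edgeR with its 95% interval for each gene in the 4 comparisons and the interaction, with filled points at an adjusted p under 0.05, open points at or above it, and dotted lines at a 1.5-fold change. Hspa8 and Hsp90ab1 lay left of 0 for genotype with vehicle and right of it for JSH-23, opposite to Hsp90aa1, while on TPM the points of Hsf1, Hspa1a, Hspa1b and Hspb1 for JSH-23 in Arid1a KO, of Hsp90ab1 and Dnajb1 for genotype with JSH-23, and of Hsp90aa1, Hsph1 and Dnajb1 for the interaction lie on the other side of 0.

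The other genes of the folding network were taken as 8 lists of 96 genes, of which 87 were tested. In Arid1a KO against WT with vehicle, 30 were higher and 29 lower by edgeR at an adjusted p under 0.05, where 25.0% and 25.5% of all tested genes were. With JSH-23 45 were higher and 16 lower, against 23.2% and 23.8% of all genes. JSH-23 raised 46 and lowered 23 in Arid1a KO, against 33.4% and 34.4%, and raised 36 and lowered 19 in WT, against 28.6% and 27.2%. For the interaction the counts were 35 and 16, against 20.5% and 17.9%, and the counts of the single lists below stand against the same shares. In the order higher and lower, the splits turned on log2(TPM + 1), to 17 and 36 for genotype with JSH-23, 31 and 41 for JSH-23 in Arid1a KO and 20 and 34 for the interaction. Without TMM they narrowed but did not turn, to 34 and 22, 36 and 33 and 26 and 26. The members' own counts moved the same way on TPM.

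Among regulators of the heat shock response, 2 of 4 genes were tested. Hsf2, whose protein can pair with HSF1, stood at 10.5 and 10.2 CPM in the WT vehicle samples, 9.23 and 9.88 in the Arid1a KO vehicle samples, 16.3 and 19.6 in the WT JSH-23 samples and 14.3 and 15.3 in the Arid1a KO JSH-23 samples. It was higher with JSH-23 in both genotypes, by 0.79 (SE 0.11, adjusted p = 6.57e-09) in WT and 0.63 (SE 0.11, adjusted p = 1.09e-06) in Arid1a KO on the log2 scale in edgeR, as Hsph1 was, and the value in Arid1a KO was 0.29 on log2(TPM + 1). Hsbp1, which binds the HSF1 trimer, was higher in Arid1a KO by 0.27 (SE 0.055, adjusted p = 2.48e-05) with vehicle and 0.32 (SE 0.054, adjusted p = 7.96e-07) with JSH-23 in edgeR, and its change with JSH-23 in Arid1a KO, 0.12 (SE 0.051, adjusted p = 0.0328), was 0.0071 without TMM and turned to -0.12 on log2(TPM + 1). The latter Hsbp1 call was also lost by DESeq2 (0.12), with only genes of at least 10 counts in every sample (0.096) and without Arid1a KO vehicle replicate 2 (0.10) or Arid1a KO JSH-23 replicate 2 (0.14), and the genotype call with JSH-23 on log2(TPM + 1) (0.12).

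Of 12 tested HSP70 relatives and exchange factors, 5 were higher and 4 lower in Arid1a KO with vehicle by edgeR, and with JSH-23 4 were higher and 1 lower. JSH-23 raised 4 and lowered 5 in Arid1a KO, and raised 3 and lowered 2 in WT. On log2(TPM + 1), 2 and 5 were higher and lower in Arid1a KO with JSH-23, the reverse of the TMM split. Without TMM they were 5 and 1 with vehicle and 3 and 3 with JSH-23. Bag3, an HSP70 cochaperone that is itself induced with Hspa1a by heat, ran opposite to the pair on CPM for genotype and for JSH-23 in WT. With JSH-23 in Arid1a KO, Bag3 and the pair were both higher on CPM. Bag3 stood at 55.9 and 60.2 CPM in the WT vehicle samples, 47.6 and 46.6 in the Arid1a KO vehicle samples, 68.6 and 67.2 in the WT JSH-23 samples and 57.9 and 56.9 in the Arid1a KO JSH-23 samples. Its log2 fold change in Arid1a KO against WT was -0.30 (SE 0.055, adjusted p = 3.03e-06) with vehicle and -0.24 (SE 0.051, adjusted p = 5.08e-05) with JSH-23 in edgeR, and the latter was -0.43 on log2(TPM + 1).

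All 15 HSP90 cochaperones were tested. JSH-23 raised 10 and lowered 4 of them in Arid1a KO, and raised 7 and lowered 5 in WT, by edgeR. Arid1a KO had 4 higher and 7 lower than WT with vehicle, and 5 and 3 with JSH-23. These became, on log2(TPM + 1), 6 and 7 for JSH-23 in Arid1a KO and 1 and 9 for genotype with JSH-23. Cdc37, which loads kinases onto HSP90, stood at 331 and 332 CPM in the WT vehicle samples, 282 and 274 in the Arid1a KO vehicle samples, 385 and 381 in the WT JSH-23 samples and 442 and 447 in the Arid1a KO JSH-23 samples. Like Hsp90ab1 it was lowest in Arid1a KO vehicle, and it rose with JSH-23 there by 0.68 (SE 0.022, adjusted p = 8.97e-39) on the log2 scale in edgeR, or 0.44 on log2(TPM + 1). Stip1, the link between HSP70 and HSP90, had an interaction of 0.54 (SE 0.035, adjusted p = 2.14e-21) by edgeR, with 270.3 and 270.5 CPM in the WT vehicle samples, 246 and 252 in the Arid1a KO vehicle samples, 247 and 249.5 in the WT JSH-23 samples and 328 and 336 in the Arid1a KO JSH-23 samples. On CPM its JSH-23 samples lay below the vehicle samples in WT and above them in Arid1a KO, and the interaction was 0.34 on log2(TPM + 1).

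Cytosolic J-proteins numbered 15, all tested, with 6 higher and 2 lower in Arid1a KO with vehicle and 6 and 4 with JSH-23 by edgeR. JSH-23 raised 3 and lowered 4 in Arid1a KO, and raised 5 and lowered 4 in WT, and on log2(TPM + 1) the counts were 1 and 11 in Arid1a KO and 4 and 5 in WT. The genotype split with JSH-23 turned to 3 and 5 without TMM and 2 and 7 on log2(TPM + 1). Dnajc7 was lower with JSH-23, as Dnajb1 was, with log2 fold changes of -0.75 (SE 0.043, adjusted p = 2.47e-25) in Arid1a KO and -0.51 (SE 0.047, adjusted p = 4e-15) in WT in edgeR. Of 8 other small heat shock proteins 3 were tested, and JSH-23 lowered 2 of them, Hspb6 and Hspb7, in each genotype by edgeR. In WT the call of Hspb6, -0.19 (SE 0.084, adjusted p = 0.05), was lost by DESeq2 (-0.19), without a filter on low counts (-0.18) and in 7 of the 8 omissions of a sample, where the values of all 8 ran from -0.25 to -0.12. Hspb7 is known from heart muscle. It stood at 33.5 and 33.2 CPM in the WT vehicle samples, 40.5 and 42.5 in the Arid1a KO vehicle samples, 9.996 and 9.30 in the WT JSH-23 samples and 10.4 and 8.68 in the Arid1a KO JSH-23 samples, and the log2 fold change with JSH-23 was -1.79 (SE 0.096, adjusted p = 2.56e-26) in WT and -2.13 (SE 0.088, adjusted p = 6.66e-33) in Arid1a KO by edgeR.

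The mitochondrial list had 12 tested genes. In Arid1a KO with JSH-23, 9 were higher and 0 lower than in WT by edgeR, and with vehicle 5 and 3. JSH-23 raised 7 and lowered 3 in Arid1a KO, and raised 2 and lowered 3 in WT. They were, on log2(TPM + 1), 5 and 2 for genotype with JSH-23 and 3 and 5 for JSH-23 in Arid1a KO. Hspe1 rose with JSH-23 in Arid1a KO by 0.57 (SE 0.033, adjusted p = 1.35e-24) in edgeR, or 0.33 on log2(TPM + 1), values above those of its partner Hspd1. Lonp1, a matrix protease, stood at 778 and 788 CPM in the WT vehicle samples, 903 and 912 in the Arid1a KO vehicle samples, 542 and 541 in the WT JSH-23 samples and 883 and 887 in the Arid1a KO JSH-23 samples. Its log2 fold change with JSH-23 in WT was -0.53 (SE 0.018, adjusted p = 6.78e-38) by edgeR.

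The 14 subunits of TRiC and prefoldin, which fold actin and tubulin, were all tested. With vehicle 1 was higher and 9 were lower in Arid1a KO by edgeR, and with JSH-23 13 were higher and 0 lower. JSH-23 raised 13 and lowered 0 in Arid1a KO, and raised 8 and lowered 1 in WT. The split on log2(TPM + 1) was 4 and 3 for genotype with JSH-23 and 12 and 1 for JSH-23 in Arid1a KO. Tcp1 stood at 400.2 and 392 CPM in the WT vehicle samples, 316 and 308 in the Arid1a KO vehicle samples, 413 and 415 in the WT JSH-23 samples and 503 and 499 in the Arid1a KO JSH-23 samples. Its lowest group was Arid1a KO vehicle, as for Hspa8 and Hsp90ab1, and its log2 fold change with JSH-23 in Arid1a KO was 0.68 (SE 0.022, adjusted p = 7.38e-40) by edgeR and 0.44 on log2(TPM + 1).

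Of 14 ER chaperones, all tested, 7 were higher and 3 lower in Arid1a KO with vehicle and 7 and 5 with JSH-23 by edgeR. JSH-23 raised 7 and lowered 5 in Arid1a KO, and raised 10 and lowered 2 in WT. The ER counts on log2(TPM + 1) were 3 and 7 for genotype with JSH-23 and 6 and 8 for JSH-23 in Arid1a KO. Hspa5, the ER relative of Hspa8, was higher in Arid1a KO with vehicle by 0.45 (SE 0.016, adjusted p = 5.27e-37) in edgeR, the reverse of Hspa8. Dnajb9, its J-protein, stood at 39.8 and 42.2 CPM in the WT vehicle samples, 60.7 and 58.1 in the Arid1a KO vehicle samples, 26.7 and 28.1 in the WT JSH-23 samples and 21.3 and 23.1 in the Arid1a KO JSH-23 samples, with an interaction of -0.83 (SE 0.098, adjusted p = 7.42e-11) by edgeR.

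By likeness of pattern, the root mean square difference of centered log2 CPM over 8 samples was computed for 9184 genes averaging 10 CPM or more. The genes closest to the sum of Hspa1a and Hspa1b were Cnp (0.056), Rfc2 (0.064) and Selenbp1 (0.066), where the pair itself had an SD of 0.35. For Dnajb1 they were Sart3 (0.027), Rpl7l1 (0.031) and Cttn (0.032), at an SD of 0.16 for Dnajb1. For Hsph1 they were Dennd4c (0.040), Lipa (0.041) and Acaca (0.043), at an SD of 0.32 for Hsph1. The members themselves were left out of this search. None of the 9 genes belongs to the 8 chaperone lists, which hold only 87 of the 13921 tested genes.

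Immediate early genes, which tissue dissociation can induce as it can Hspa1a, Hspa1b and Dnajb1, differed between the groups as well. All 12 were tested, and with vehicle 10 were higher and 0 lower in Arid1a KO by edgeR at an adjusted p under 0.05, against 25.0% and 25.5% of all genes. In the same order the counts were 8 and 0 for genotype with JSH-23, against 23.2% and 23.8%. JSH-23 raised 1 and lowered 10 within Arid1a KO, against 33.4% and 34.4%, and the counts were 1 and 8 within WT, against 28.6% and 27.2%. For the interaction they were 1 and 10, against 20.5% and 17.9%. Summed, the 12 genes stood at 1275 and 1269 TPM in the WT vehicle samples, 2302 and 2282 in the Arid1a KO vehicle samples, 787 and 801 in the WT JSH-23 samples and 894 and 919 in the Arid1a KO JSH-23 samples, and the most abundant of them on TPM was Junb. Arid1a KO vehicle was highest, as it was on TPM for Hsp90aa1, Hspa1a, Hspa1b, Dnajb1 and Hspb1. For Dnajb1 the values were close, at 49.1 and 49.8 TPM in Arid1a KO vehicle against 47.7 and 48.9 in WT vehicle. Its genotypes were not shown to differ with vehicle. On CPM, Hspa1a, Hspa1b and Hspb1 were instead highest in Arid1a KO JSH-23. Hspa8 and Hsp90ab1 were lowest in Arid1a KO vehicle on both scales. The part of the immediate early genes in the chaperone values was not tested.

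Most markers of other cells were low, but Cd68, Lyz2, Pdgfra (at most 17.1 TPM) and Hba-a1 (at most 50.6 TPM) were counted in every sample. Of 11 leukocyte markers, Ptprc (at most 0.233 TPM), Cd3e (at most 0.135 TPM) and Ly6g (0 in every sample) were at or near 0, while the most abundant, Cd68 and Lyz2, reached 37.2 and 24.7 TPM. The 11 summed to 38.9 and 41.0 TPM in the WT vehicle samples, 41.8 and 46.4 in the Arid1a KO vehicle samples, 38.3 and 22.2 in the WT JSH-23 samples and 23.3 and 18.1 in the Arid1a KO JSH-23 samples. Of the 5 leukocyte markers tested, 1 was higher and 4 were lower in Arid1a KO with vehicle by edgeR, and with JSH-23 the counts were 1 and 3. With JSH-23 against vehicle they were 0 and 1 in Arid1a KO and 0 and 2 in WT, and 0 and 1 for the interaction, and the shares of all genes are those given for the immediate early genes. Replicate 2 of WT JSH-23 had less than replicate 1. The 6 fibroblast markers summed to 17.6 and 19.9 TPM in the WT vehicle samples, 18.9 and 19.0 in the Arid1a KO vehicle samples, 17.7 and 17.6 in the WT JSH-23 samples and 11.04 and 10.6 in the Arid1a KO JSH-23 samples, mostly Pdgfra, with Col1a1 at no more than 1.53 TPM. The 5 endothelial markers summed to at most 1.48 TPM, and the 4 erythroid markers, mainly Hba-a1, to 16.6 and 29.6 TPM in the WT vehicle samples, 56.3 and 53.7 in the Arid1a KO vehicle samples, 25.7 and 23.4 in the WT JSH-23 samples and 41.2 and 33.0 in the Arid1a KO JSH-23 samples. In bulk RNA, fewer cells of a type and less RNA per cell cannot be told apart, and the part of these cells in the values of Hspa8 or Hsp90ab1 was not tested.

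RefSeq promoter entries of GRCm38.p6, which hold 250 bases before the start, matched 6 of 10 members. There was no entry in the table used for Hsf1, Hspa8, Hsp90aa1 and Hsp90ab1. The windows were searched on both strands for heat shock element letters, as 2 units (GAANNTTC or TTCNNGAA) and as 3 units (GAANNTTC followed by NNGAA, or TTCNNGAA followed by NNTTC), so every 3-unit match contains 2-unit ones. Of all 32851 promoters, 0.466% held the 3-unit and 12.8% the 2-unit letters. Counted by gene symbol, with a match in any entry, the shares were 0.514% and 14.5% of 27025. The 3-unit letters were found in 1 of the 2 entries of Hspd1, as overlapping matches at positions -144 and -139 from that start, and in none of the other members with an entry. The 2-unit letters were found for Hspa1a, Hspa1b, Hsph1, Hspb1 and that entry of Hspd1, and not in either entry of Dnajb1. The 70 bases around the Hspd1 and Hsph1 matches overlap an annotated exon and lie within the gene extents given above. Those around the Hspa1a, Hspa1b and Hspb1 matches overlap no annotated exon. A match describes letters and does not show binding.

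Upstream of Hspa1b and Hspa1a, 247 of 250 bases were the same, with the differences T44C, C47T and G249T, where the Hspa1b base comes first and positions count from 1 at the 5′ end of the window. The pair is shown because its genes shared one order of the 4 group means on CPM. On TPM the Arid1a KO groups exchanged places in that order for both genes. Hspb1 is shown because it too was higher in all Arid1a KO samples than in all WT samples on CPM. Each is 70 bases on its gene's strand, with the 2-unit letters in capitals, at chr17:34959304-34959373 (minus strand), chr17:34972222-34972291 (minus strand) and chr5:135887781-135887850 (plus strand). The Hspa1b and Hspa1a stretches are identical and carry 1 match, at position -104 from the start, and that of Hspb1 carries 2.
Hspa1b: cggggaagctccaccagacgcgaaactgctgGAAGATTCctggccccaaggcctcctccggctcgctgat
Hspa1a: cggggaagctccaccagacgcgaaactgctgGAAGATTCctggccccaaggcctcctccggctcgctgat
Hspb1: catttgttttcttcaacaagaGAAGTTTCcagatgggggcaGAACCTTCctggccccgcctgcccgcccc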

How the data were processed

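Total RNA of cells labeled as sorted was sequenced as read pairs. The authors deposited raw counts per gene, from HTSeq on GRCm38/mm10, and TPM computed by the authors. The study's methods name TopHat2 with strand-specific counting and the submitters' processing notes name HISAT2, HTSeq, DESeq2 and mm10, so the aligner is uncertain. Groups came from the labels.

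Counts of all 39089 genes were fitted with edgeR 4.0.16 (R 4.3.3): filterByExpr, TMM, quasi-likelihood tests, a mean per group over all 8 samples. Benjamini-Hochberg adjustment covered the 13921 genes tested. A call was a 1.5-fold change with an adjusted p under 0.05, and counts at an adjusted p alone are given beside it. Samples held 16401581 to 21972231 counts, so 3 counts, the floor that a count of 0 allows, were 0.144 to 0.182 CPM (counting error only). Fits were tested on simulated data, and no outcome of that test is used here. Alternatives were DESeq2 1.42.0, limma 3.58.1 on log2(TPM + 1) and log2(TPM + 0.1), library size scaling, other filters, a replicate block, only the groups compared, a set coefficient of variation, glmTreat, an unadjusted p, summed paralogs and leaving out each sample. Genes beside the members and Arid1a were eligible if among the 3 largest changes of their list in a comparison (adjusted p under 0.05, mean of at least 10 CPM), or the 3 closest in pattern. Biopython 1.88 aligned the transcripts. Members and lists were chosen with earlier results of these data known.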

Additional observations from a re-analysis of the deposited data

Results flagged for a closer look

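The effect of JSH-23 in Arid1a KO differed from that in WT, by the interaction in edgeR at an adjusted p under 0.05, for 7 of 10 members, all higher, where 20.5% of all tested genes were higher and 17.9% lower. As the log2 effect in Arid1a KO minus that in WT, the differences were 0.48 for Hspa1a, 0.53 for Hspa1b, 0.52 for Hspa8, 0.13 for Hsp90aa1 (reversed on TPM), 0.40 for Hsp90ab1, 0.27 for Hspb1 and 0.26 for Hspd1. In that order they were 0.25, 0.32, 0.32, -0.066, 0.20, 0.074 and 0.066 on log2(TPM + 1). There Hspa1a and Hspd1 lost the call, and with Hsf1 the members had 4 higher and 2 lower calls. Hspa1a also lost it by DESeq2 and without TMM, and Hsp90aa1 without TMM. All 7 calls were lost with the biological coefficient of variation set to 0.1, far above the fitted one. For Hspa8 and Hsp90ab1 JSH-23 raised the level in both genotypes, and for Hsp90aa1 it lowered the level in both. For Hspb1 and Hspa1b the edgeR effects had opposite signs in WT and Arid1a KO, which held on neither TPM nor library size scaling.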

How the results depend on the processing

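Of 900 recomputed log2 fold changes (50 member values, 19 settings), 755 kept direction and side of the adjusted p threshold, 102 lost the call, 10 gained one, 13 reversed and 20 uncalled ones changed sign. With the biological coefficient of variation set to 0.1 and 0.2, far above the fitted one, 29 and 38 of the 39 calls were lost.

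Reversals came with scaling, and the cause was not tested. For Hsp90ab1, genotype with JSH-23, the value was -0.037 by library size and -0.15 and -0.15 on log2(TPM + 1) and log2(TPM + 0.1). For JSH-23 in Arid1a KO, in that order, Hspa1b was -0.0026, -0.12 and -0.12, Hspb1 -0.014, -0.14 and -0.14, Hsf1 -0.078 (uncalled), -0.20 and -0.20, and, on the TPM scales alone, Hsbp1 -0.12 and -0.12. The Hsp90aa1 interaction was -0.066 and -0.066 on the TPM scales. The share of 1.5-fold calls that were higher moved by over 10 points with scaling: for genotype with JSH-23 from 42.9% to 29.6% (library size), 15.9% and 16.0% (TPM), for JSH-23 in Arid1a KO from 35.0% to 22.5%, 12.8% and 13.6%, and for the interaction from 36.5% to 18.8%, 10.6% and 11.3%.

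The genes called numbered 1760, 1212, 3625, 2197 and 1262 for genotype with vehicle, genotype with JSH-23, JSH-23 in Arid1a KO, JSH-23 in WT and the interaction. With the coefficient set to 0.2 they were 614, 258, 2144, 809 and 47, with glmTreat 682, 312, 2144, 795 and 224, and for the interaction 747 at 0.1.

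Members called for genotype with vehicle went from 0 to 1 (Hspa8) by DESeq2, without a filter, and without WT vehicle replicate 1 or any single JSH-23 sample (0 to 1 over samples left out). For genotype with JSH-23 they went from 2 to 1 (Hspa1b) on log2(TPM + 1) and with glmTreat, and to 0 at 0.2. For JSH-23 in Arid1a KO they went from 3 to 1 (Hspa8) by library size, on both TPM scales and at 0.2, and ranged from 2 to 3 over samples left out. For JSH-23 in WT they ranged from 0 to 1 over samples left out, with Hsph1 called without WT vehicle replicate 2. Members with an adjusted p under 0.05 fell to 1, 3, 3, 3 and 0 at 0.1, in the same order, and to 0, 0, 1, 0 and 0 at 0.2.

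Arid1a lost its genotype call at 0.2 (-0.60 with vehicle, -0.66 with JSH-23). Its JSH-23 effect in Arid1a KO was not called at 0.1 (-0.14) and 0.2 (-0.14) and ranged from -0.15 to -0.10 over samples left out, losing the call without Arid1a KO JSH-23 replicate 1. In WT it was not called by DESeq2 (-0.082), without a filter (-0.077), on TPM (-0.12 and -0.12), at 0.1 (-0.082) and 0.2 (-0.082), and ranged from -0.13 to -0.027 over samples left out, losing the call without WT vehicle replicate 2, WT JSH-23 replicate 1 or either Arid1a KO JSH-23 sample. Its interaction passed the threshold by library size (-0.16) and on TPM (-0.24 and -0.25).

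With the replicate number as a replicate block, genes called numbered 1750, 1200, 3612, 2187 and 1269, and no member gained or lost a call; of the other genes compared, Hspb6 lost its call for JSH-23 in WT (-0.19). Differences between replicates 1 and 2 correlated over genes between groups at -0.080 to 0.031, so nothing shows that the numbers pair the samples. Leaving out a sample leaves an arm with 1, assumed to vary like the others. Hspa1a had the fewest counts of the members, 136 to 305.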
